A study of Mus musculus with 5 samples.

Results

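Havcr1-positive kidney cells were described here in mice injured with aristolochic acid I (AAI), a plant toxin that enters proximal tubule cells. A barcode was counted as Havcr1-positive when it held at least 2 unique molecular identifiers (UMIs, one for each RNA molecule captured) of Havcr1, no UMI of Ptprc, Cd3e, Cd3d or Cd3g, and at most 2 UMIs of C1qa, C1qb and C1qc together. The members were therefore chosen by the measured values of these genes, and their Havcr1 level is a description with no test. Of 60043 barcodes with at least 200 genes and at most 30% mitochondrial UMIs, 80 met the rule (0.133%), with 21 and 27 from the AKI libraries, 23 and 9 from the CKD libraries and 0 from the control.

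All mice were wild-type C57BL/6 males aged 8 to 10 weeks at the start. The AKI libraries (n = 2) came from kidneys taken at week 2, after intraperitoneal AAI at 3 mg/kg every 3 days. The CKD libraries (n = 2) came from week 4, after the same injections and then 2 weeks without AAI. The control library (n = 1) is placed at week 0, which the study calls baseline. The study's methods also describe control mice given vehicle on the same schedule, so whether this library had vehicle is unclear. The labels do not say how many mice were pooled per library, so p-values measure the spread between libraries, which may be technical. Each library held between 90028670 and 121316769 UMIs. Of the barcodes kept, 19 to 132 were shared by each pair of libraries, but 0 of the 80 Havcr1-positive barcodes recurred in another library.

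Havcr1 encodes KIM-1 (TIM-1), a membrane protein that is nearly absent from a healthy tubule and appears on proximal tubule cells after toxic or ischaemic injury, where it lets the epithelium take up dead cells. Injured proximal tubule cells are known to lose transporters and metabolic enzymes and to express keratins, osteopontin (Spp1) and clusterin (Clu). AAI is carried into these cells by the organic anion transporters encoded by Slc22a6 and Slc22a8. Slc34a1, the sodium-phosphate cotransporter of the brush border, marks differentiated proximal tubule and was used to pick the comparison cells. In GRCm39, Havcr1 (ENSMUSG00000040405) lies on the plus strand of chromosome 11 from 46625907 to 46670405, and Slc34a1 (ENSMUSG00000021490) on the plus strand of chromosome 13 from 55546000 to 55563413.

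Havcr1-positive cells were found in all AAI libraries and were not detected in the control. Their share of kept barcodes was 0.187% for AKI 1 (95% exact binomial interval 0.116 to 0.286%) and 0.249% for AKI 2 (0.164 to 0.362%). For CKD 1 it was 0.119% (0.0755 to 0.179%) and for CKD 2 0.0947% (0.0433 to 0.180%). In the control, 0 of 9168 barcodes qualified, which allows a share of up to 0.0327%. These intervals and limits cover counting error only. The mean share was 0.218% ± 0.0434 (SD, n = 2) in AKI and 0.107% ± 0.0173 (SD, n = 2) in CKD, a difference of -0.111 percentage points. Both AKI shares exceeded both CKD shares, but 2 libraries against 2 cannot give a two-sided exact permutation p below 0.333.

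The order of the libraries depended on what the cells were counted against. Most kept barcodes of the AAI libraries held Ptprc or Cd3 UMIs. Of the barcodes free of Ptprc and Cd3 UMIs, the Havcr1-positive cells made up 1.02, 1.51, 0.518 and 0.894% for AKI 1, AKI 2, CKD 1 and CKD 2. Of all Havcr1-positive and comparison cells together they made up 7.05, 9.78, 2.19 and 5.08% in the same order, so CKD 1 rather than CKD 2 was lowest on both counts. When every barcode was thinned to 2000 UMIs before the rule was applied, leaving out shallower barcodes, the same 4 libraries kept 5, 10, 11 and 3 cells (0.0547, 0.109, 0.0745 and 0.0350%). The AKI and CKD shares then overlapped, and the difference was -0.0271 percentage points.

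Havcr1 UMIs were also found in other cell types. Endothelial cells (at least 3 UMIs of their marker list and no Ptprc), which should lack the gene, held at least 2 Havcr1 UMIs in 10 of 2094 cells of the AAI libraries (0.478%), with 1.02, 1.04, 0.187 and 0% by library. Among Slc34a1-positive cells (at least 3 UMIs, with the immune gates of the members) the same count was 31 of 1805 (1.72%), with 2.04, 5.67, 0.568 and 1.73%. The endothelial cells had no limit on Cd3 or C1q UMIs, so the gates of these sets were not alike. The Slc34a1-positive share was higher in value in 4 of 4 AAI libraries, but the 95% exact intervals were apart only in AKI 2 (3.28 to 9.05% against 0.285 to 2.65%). In the other 3 AAI libraries the intervals overlapped, so a level of Havcr1 above this background was not shown there. The median depth was 3910.5 to 8160.5 UMIs in the Slc34a1-positive cells and 3200 to 7653.5 in the endothelial cells. T lymphocytes (at least 2 Cd3 UMIs and 1 of Ptprc), of which activated ones are known to carry TIM-1, held at least 2 Havcr1 UMIs in 30 of 25070 cells (0.120%). In the control, 0 of 1161 T lymphocytes, 0 of 1572 endothelial cells and 0 of 932 Slc34a1-positive cells reached 2 Havcr1 UMIs.

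Within the Havcr1-positive cells, Havcr1 ranged from the minimum of 2 UMIs in 25 cells and 3 UMIs in 15 cells to 4 or more in 40 cells. The highest single cell held 37 and 66 UMIs in the AKI libraries and 33 and 16 in the CKD libraries. Summed over members, Havcr1 stood at 1.87, 3.11, 3.42 and 2.54 per 10000 UMIs in the 4 libraries. The members held 553 of the 2072 Havcr1 UMIs of all kept barcodes (26.7%). Just outside the rule, 129 cells of the AAI libraries had 1 Havcr1 UMI, a median of 7477 UMIs and Slc34a1 at 3 or more UMIs in 51 cells. Just inside, the 25 cells with 2 UMIs had a median depth of 24039 UMIs and Slc34a1 at 3 or more in 11 cells. Spp1 stood at 280 per 10000 just outside and 260 just inside, and Krt8 at 7.17 and 6.90.

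Havcr1-positive cells were deeply sequenced. Their median total was 34959, 30607, 12429 and 9125 UMIs by library, against 4258, 6457, 3816 and 4821 in the comparison cells. A minimum count favours deep barcodes, and 40 of 80 members lay among the deepest 5% of their library. The mitochondrial share of their UMIs was lower, with medians of 3.55, 6.14, 6.37 and 1.4% against 10.1, 13.3, 13.5 and 14.1% in the comparison cells. The largest cell supplied 11.4, 8.25, 16.3 and 31.5% of the members' UMIs in AKI 1, AKI 2, CKD 1 and CKD 2. No doublet caller was run, and the part of droplets with more than 1 cell was not tested.

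**Figure D1:**
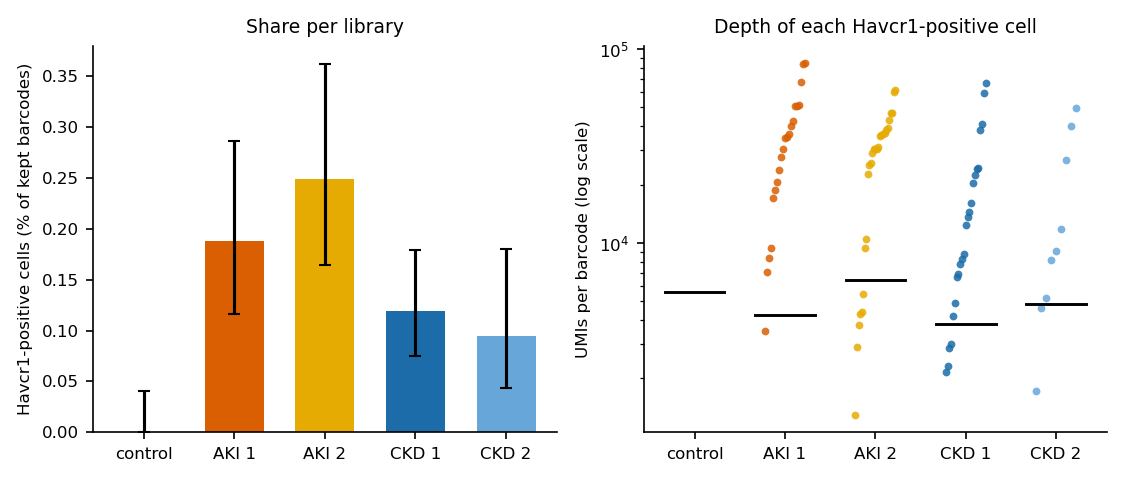
Share of Havcr1-positive cells among kept barcodes in percent for each of the 5 libraries (bars from 0, with 95% exact binomial intervals as lines) and the UMIs of each Havcr1-positive cell on a log axis (points), beside the median of the comparison cells of the same library (horizontal lines). The AKI shares of 0.187 and 0.249% lie above the CKD shares of 0.119 and 0.0947%, the control is at 0, and most Havcr1-positive cells are deeper than the comparison median.

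The Havcr1-positive cells were not one kind of cell. After their values were seen, 3 classes were set for description, without a test. A first class of 30 cells had at least 3 Slc34a1 UMIs and few distal nephron UMIs (5, 16, 6 and 3 by library). A second class of 7 cells had at least 100 UMIs from lists of thick ascending limb, distal convoluted, principal and intercalated cell genes (3, 2, 2 and 0 by library). The remaining 43 cells met neither condition (13, 9, 15 and 6 by library). The distal class stood clear, with 499 to 1603 such UMIs against 83 at most in any other member. The Slc34a1 boundary was less wide: 27 of the 43 remaining cells had no Slc34a1 UMI, 16 had 1 or 2, and the lowest cell of the Slc34a1 class had 4.

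The Slc34a1 class kept a proximal tubule profile. The summed proximal tubule differentiation list had a median of 321 per 10000 UMIs over its cells, with a range of 54.3 to 583, and a median of 10.9% of UMIs were mitochondrial. Gpx3, a secreted glutathione peroxidase made by proximal tubule, stood at 236 per 10000, and Lrp2, the endocytic receptor megalin, at 3.85. Spp1 had a UMI in 30 of 30 cells and stood at 324 per 10000, although 2 cells of CKD 2 held only 2 and 13 Spp1 UMIs. C3, the central complement component, stood at 14.9 per 10000 here, against 1.71 in the 43 remaining cells.

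The 43 remaining cells mostly held low levels of proximal tubule genes. Injured cells are known to lose such genes, so these levels do not show whether the cells were injured. Their summed proximal tubule list had a median of 28.7 per 10000, and 22 of the 43 lay at or below 29.9, the highest summed level in the T lymphocytes of any library, whereas 0 of the 30 cells of the Slc34a1 class did. Lrp2 stood at 0.313 and Gatm, the first enzyme of creatine synthesis, at 0.327 per 10000. The level of 29.9 was that of CKD 1, and T lymphocytes of AKI 1, AKI 2 and CKD 2 stood at 18.8, 17.8 and 7.01. Some of the 22 cells thus lay above the T lymphocytes of their own library, such as CKD 2 cells at 7.67, 8.28 and 18.4. For cells at or below the level of their own library, this list did not bear out the label of a proximal tubule cell. All 22 are named here only by the rule. Over the 43 cells the median depth was 8398 UMIs against 30613.5 in the Slc34a1 class. Under 5% mitochondrial UMIs were held by 32 of 43 against 5 of 30. The proximal tubule levels of the 43 cells ranged from 2.00 to 424 per 10000, and 9 of them lay above 100. The cell at 424 held 2 Slc34a1 UMIs among 1297 UMIs, so the fixed cut of 3 UMIs can place a shallow proximal tubule cell here.

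S100a6, a calcium-binding protein of injured and ductal epithelia, led the genes that set the 43 remaining cells apart from the Slc34a1 class. It stood at 102 per 10000, between 49.1 and 133 in the 4 libraries, and was detected in 36 of 43 cells. In the Slc34a1 class it stood at 0.177 per 10000 and was detected in 9 of 30 cells. The small heat shock genes followed the same order, with Cryab at 47.7 against 3.8 and Hspb1 at 36.0 against 1.72. So did the keratins Krt8 (14.5 against 4.08) and Krt18 (8.92 against 0.260), and all 4 of these genes kept that order in 4 of 4 libraries. Cdkn1a, a cell cycle inhibitor, stood at 15.3 against 3.85 but at 6.69 against 8.83 in CKD 1, and its medians over cells were 2.94 and 2.24. Spp1 summed over libraries went the other way, at 147 against 324, but stood at 196 in both classes of CKD 1 and at 8.01 against 143 in CKD 2.

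Several genes that led these 43 cells are known from other tubule segments. Fst, the activin antagonist follistatin, stood at 5.88 per 10000 against 0.0312 in the Slc34a1 class, the ectoenzyme gene Bst1 at 3.93 against 0.0624, and the water channel gene Aqp1 at 9.21 against 0.260. As background, Bst1, Fst and Aqp1 have been described in the thin descending limb, and Aqp1 also in proximal tubule. Aqp1 was detected in 12 of the 43 cells and Fst in 18, so not every cell carried them. In CKD 2 Aqp1 went the other way, at 0.370 per 10000 in these cells against 1.31 in the Slc34a1 class. Much of the Fst came from AKI 1 cells with 112 and 191 UMIs. Epcam, an epithelial adhesion molecule, stood at 5.89 per 10000 against 0.333, and Cd24a, a surface protein of immature and distal epithelium, at 6.37 against 0.156.

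The 7 distal cells had the highest class median, 59648 UMIs, and were of more than 1 segment. Umod, the thick ascending limb protein uromodulin, held 121 to 1158 UMIs in 6 of them. Of these 6 cells, 2 also held 121 and 225 UMIs of Slc12a3, the thiazide-sensitive cotransporter of the distal convoluted tubule. The other cell held 2 Umod UMIs but 165 of Aqp2, the principal cell water channel, and 68 of Atp6v1g3, a proton pump subunit of intercalated cells. Lcn2, the secreted injury marker NGAL, stood at 22 per 10000 in these cells and was found in 7 of 7, against 0.0937 in the Slc34a1 class and 0.341 in the 43 remaining cells. Clu followed, at 61.7 against 0.645 and 1.55. The Lcn2 and Clu signal of the Havcr1-positive set thus sat mostly in 7 cells, of which 1 also had at least 3 Slc34a1 UMIs.

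**Figure D2:**
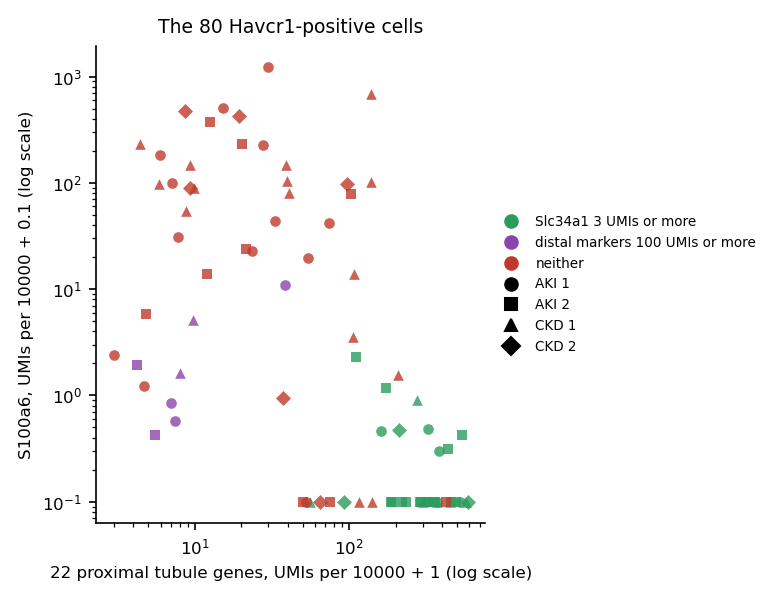
Each of the 80 Havcr1-positive cells, placed by its summed level over 22 proximal tubule genes (plus 1) and its S100a6 level (plus 0.1), both in UMIs per 10000 on log axes, with the 3 classes as colours and the libraries as marker shapes. Cells of the Slc34a1 class lie at 54.3 per 10000 or more on the proximal tubule axis and mostly at the bottom of the S100a6 axis. The 43 remaining cells range from 2.00 to 424 per 10000 on the proximal tubule axis, and 9 of them lie above 100.

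To ask which genes accompanied Havcr1, members were set against Slc34a1-positive cells with 0 Havcr1 UMIs and the same immune gates (277 and 249 in the AKI libraries, 1029 and 168 in the CKD libraries and 930 in the control). UMIs were summed per library and cell set, and edgeR's quasi-likelihood test was run with the library as a block over AKI 1, AKI 2 and CKD 1, the libraries with at least 20 members. Of 10096 genes tested, 391 were higher in Havcr1-positive cells (3.87%) and 605 lower (5.99%) at an adjusted p under 0.05 (Benjamini-Hochberg). In CKD 2, which did not enter the fit, 314 of the 391 (80.3%) and 496 of the 605 (82.0%) had the same sign, against 72.8 and 50.5% of all genes tested with a positive or a negative fold change. Since the members were deeper and of several kinds, list counts are also given under 2 alternatives. Under the Slc34a1 limit, members had at least 3 Slc34a1 UMIs. In the setting called matched depth for short, comparison cells below the lower quartile of member depth in their library were left out. It kept 68, 102 and 358 comparison cells in AKI 1, AKI 2 and CKD 1. It sets a floor and does not match the depths, so members can still be deeper there.

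These counts rested on few libraries. Without AKI 1 only 132 genes passed and without CKD 1 only 94, whereas without AKI 2 the count was 1540. With comparison cells of matched depth, 878 genes passed, and 295 of the 391 higher and 497 of the 605 lower genes were among them. With members of at least 3 Slc34a1 UMIs (6, 16 and 6 cells), 34 of 9778 genes were higher (0.348%) and 195 lower (1.99%), of which 22 and 102 were shared and 6 had the opposite sign. With library totals in place of TMM scaling the split turned to 850 higher and 366 lower, and the median log2 fold change of all genes moved from -0.06 to 0.16.

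Members of the tubular injury list rose. Of 24 genes tested, 13 were higher and 0 lower, with a median log2 fold change of 1.24 against -0.06 over all genes tested. At matched depth the counts were 12 and 0. With members limited to at least 3 Slc34a1 UMIs they were 3 and 3 of 23, with a median of 0.25: Cp, Spp1 and Krt20 were higher, and Vim, Krt7 and Anxa1 lower. Vim, Krt7 and Anxa1 encode vimentin, a simple-epithelium keratin and an annexin that are usually listed with injury. The list was chosen with earlier results of these data known.

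Spp1 encodes osteopontin, a secreted glycoprotein made by injured tubule and bound by macrophages. It stood at 274, 350, 256 and 73.7 per 10000 UMIs in the Havcr1-positive cells of AKI 1, AKI 2, CKD 1 and CKD 2. In the comparison cells it stood at 189, 211, 125 and 78.2, and at 14.6 in the control. Every AAI library was thus far above the control even in Havcr1-zero cells, and CKD 2 showed no excess in the members. The fitted log2 fold change was 0.55 (SE 0.15, adjusted p = 0.0454). It was 0.59 (adjusted p = 0.0025) with members of at least 3 Slc34a1 UMIs, 0.40 (adjusted p = 0.0839) at matched depth, 0.67 (adjusted p = 0.0543) without AKI 1 and 0.40 (adjusted p = 0.433) without CKD 1. It also missed the threshold without the 7 distal cells (0.35, adjusted p = 0.144), with CKD 2 added (0.25, adjusted p = 0.606), with cells thinned to at most 3000 UMIs (0.25, adjusted p = 0.239), with a mitochondrial limit of 15% (adjusted p = 0.0959) and with DESeq2 (adjusted p = 0.0518). The sign turned when the rule was applied after thinning (-0.58, adjusted p = 0.536) and without the deepest 5% of barcodes (-0.06, adjusted p = 0.931).

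Krt20, a keratin seen in severely injured tubule and named here after its values were seen, was low but clear of the comparison cells. Members held 0.403, 0.802, 0.364 and 0.826 per 10000 and comparison cells 0.0575, 0.10, 0.0714 and 0.0486. The groups did not overlap in any library, and the log2 fold change was 2.52 (SE 0.25, adjusted p = 0.0012). With members of at least 3 Slc34a1 UMIs it was 2.21 (adjusted p = 0.000339). In the Slc34a1 class, however, Krt20 was detected in 6 of 30 cells, with 1, 4, 1 and 0 by library. That value thus rests on 1 cell in AKI 1 and 1 cell in CKD 1. Krt20 was detected in 26 of 80 members.

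Krt8, the partner keratin of simple epithelia, stood at 12.4, 6.99, 5.89 and 15.2 per 10000 in members and at 4.65, 3.30, 3.14 and 1.42 in comparison cells. Its log2 fold change was 0.92 (SE 0.15, adjusted p = 0.00598), but it was -0.02 when members were limited to at least 3 Slc34a1 UMIs. Cryab, the small heat shock protein alpha-B-crystallin, stood at 23.5, 12.6, 33.6 and 19.1 against 3.29, 3.34, 4.02 and 1.99. Its log2 fold change of 2.39 (SE 0.22, adjusted p = 0.0012) became 0.19 (adjusted p = 0.962) under the same limit, and did not pass without the 7 distal cells (2.47, adjusted p = 0.19). Both genes stood higher in the distal cells and in the 43 remaining cells than in the Slc34a1 class.

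Several other widely used injury genes did not pass in the edgeR test or turned with the 7 distal cells. Lcn2 stood at 6.34, 3.49, 4.25 and 0.191 per 10000 in members and at 3.43, 0.307, 1.37 and 0.118 in comparison cells (log2 fold change 1.71, adjusted p = 0.228), and its sign turned to -3.01 (adjusted p = 0.00105) without the 7 distal cells. Clu passed at 1.61 (SE 0.20, adjusted p = 0.00264) but turned to -1.86 (adjusted p = 0.0879) without those cells. The comparison cells were not filtered for distal UMIs, so these turns do not compare cells filtered alike. Cdkn1a had a log2 fold change of 0.92 (adjusted p = 0.14) and the adhesion molecule gene Vcam1 0.67 (adjusted p = 0.119), and both passed without the distal cells, at 1.25 (adjusted p = 0.00642) and 1.03 (adjusted p = 0.00686). The progenitor factor gene Sox9 stood at 0.16 (adjusted p = 0.66). Lcn2, Vcam1 and Sox9 were named after their values were seen.

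The 10 largest rises were in Bst1, S100a6, Sprr1a, Cpe, Ankrd1, Anxa3, Plet1, Nupr1, Tinagl1 and Hspb1. Bst1 was 21.6-fold higher (log2 4.43, SE 0.42, adjusted p = 0.00264), with 2.17, 0.508, 2.55 and 0.254 per 10000 in members against 0.0288, 0.0194, 0.178 and 0 in comparison cells. S100a6 was 19.1-fold higher (log2 4.26, SE 0.40, adjusted p = 0.00567), with 51.8, 7.15, 44.7 and 68.5 per 10000 against 1.4, 0.691, 1.66 and 0.180. T lymphocytes of the AAI libraries held S100a6 at 7.11 to 10.4 per 10000, so the AKI 2 members lay within the T lymphocyte range and the other 3 libraries above it. Hspb1 held 19.1, 11.3, 17.3 and 22.2 per 10000 in members against 2.02, 2.59, 2.85 and 1.03 (log2 2.44, SE 0.21, adjusted p = 0.000745).

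Of these 10 genes, all 10 passed at matched depth. Without the deepest 5% of barcodes, which left 8, 10 and 15 members, 4 passed (Sprr1a, Cpe, Anxa3 and Nupr1). Bst1 (adjusted p = 0.323), S100a6 (0.114), Ankrd1 (0.489) and Hspb1 (0.560) were among those that did not. With comparison cells picked on at least 2 Lrp2 UMIs, 8 passed, and S100a6 and Nupr1 did not. With members of at least 3 Slc34a1 UMIs, 1 gene passed. That gene was Cpe, the prohormone-processing carboxypeptidase E, which held 1.53, 1.5, 0.898 and 1.21 per 10000 in members against 0.0799, 0.155, 0.176 and 0.0277 in comparison cells. Its log2 fold change was 3.03 (SE 0.32, adjusted p = 0.0022), and 2.10 (adjusted p = 8.47e-07) under the Slc34a1 limit. Under that limit S100a6, Plet1, Nupr1, Tinagl1 and Hspb1 turned to -0.97, -0.96, -0.03, -0.99 and -0.09, none of them past the threshold. Ankrd1, a cardiac-type ankyrin repeat protein known as a target of the YAP pathway, held 3.83, 3.88, 2.16 and 0.191 per 10000 in members against 0.310, 0.630, 0.223 and 0 (log2 2.94, SE 0.21, adjusted p = 0.00066), and did not pass without the distal cells (2.95, adjusted p = 0.0981).

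**Figure D3:**
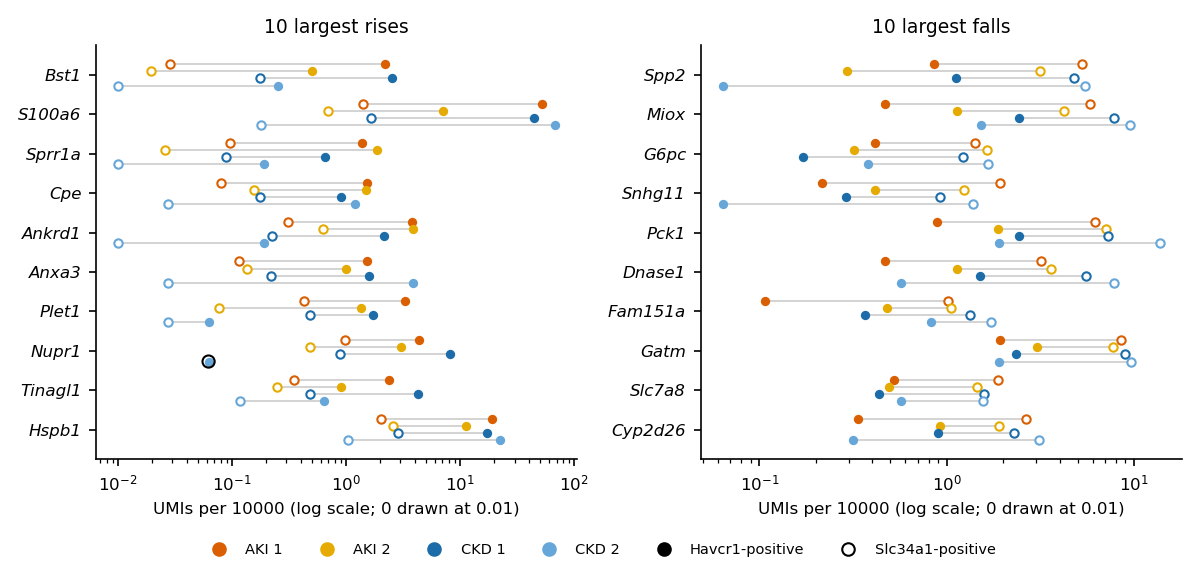
UMIs per 10000 on a log axis (0 drawn at 0.01) for the 10 largest rises and 10 largest falls, in Havcr1-positive cells (filled points) and in comparison cells (open points), with the AAI libraries as colours. S100a6 members lie at 7.15 or more against 1.66 or less in comparison cells, and Gatm members at 3.02 or less against 7.69 or more.

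Proximal tubule genes fell. The comparison cells were picked on Slc34a1, so these counts are in part set by the choice of cells. Of 21 differentiation genes tested, 0 were higher and 16 lower (median log2 fold change -1.29), and all 8 genes of the S1 and S2 segments tested were lower (median -1.81). At matched depth 16 of 21 and 7 of 8 were lower. Limiting members to at least 3 Slc34a1 UMIs put the same gene on both sides of the choice. Then 2 of 21 (Ass1 and Acsm2) and 5 of 8 (Slc5a12, Gatm, Slc5a2, Slc7a8 and Slc22a8) were lower. This limit set no floor on the depth of comparison cells and kept 1 distal cell. The Slc34a1 class had a median of 30613.5 UMIs against 4258, 6457 and 3816 in comparison cells of AKI 1, AKI 2 and CKD 1. Equal UMIs thus asked for a higher Slc34a1 level in comparison cells, and the falls left can still be in part set by the choice.

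Gatm stood at 1.92, 3.02, 2.35 and 1.91 per 10000 in members and at 8.57, 7.69, 8.94 and 9.60 in comparison cells, with 12.5 in the control. The groups did not overlap, and the log2 fold change was -2.02 (SE 0.18, adjusted p = 0.000745), or -0.81 (adjusted p = 0.000323) with members of at least 3 Slc34a1 UMIs. Glucose handling showed the same direction, with the gluconeogenic genes G6pc at -2.44 (SE 0.22, adjusted p = 0.000972) and Pck1 at -2.30 (SE 0.22, adjusted p = 0.0012) and the glucose transporter gene Slc5a2 (SGLT2) at -1.81 (SE 0.28, adjusted p = 0.00997). Miox, the first enzyme of inositol breakdown, fell by 2.54 on the log2 scale (SE 0.39, adjusted p = 0.0182), and did not pass without the distal cells (-2.15, adjusted p = 0.103). Lrp2, named after its values were seen, stood at -1.58 (SE 0.25, adjusted p = 0.00873). The remaining large falls were in Spp2, Snhg11, Dnase1, Fam151a, Slc7a8 and Cyp2d26, between -2.88 and -1.94.

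The transporters of AAI itself were low in Havcr1-positive cells. Slc22a8 (OAT3) held 0.0268, 0.0401, 0.121 and 0.0635 per 10000 in members against 0.783, 0.468, 0.966 and 1.22 in comparison cells. The groups did not overlap, with a log2 fold change of -3.92 (SE 0.33, adjusted p = 0.00066), and -2.66 (adjusted p = 4.03e-07) with members of at least 3 Slc34a1 UMIs. It was detected in 9 of 80 members, all in the Slc34a1 class. Slc22a6 (OAT1) held 0.0268, 0.294, 0.534 and 1.46 against 0.361, 0.675, 1.08 and 1.51 (log2 -1.70, SE 0.33, adjusted p = 0.0161), and did not pass under the Slc34a1 limit (adjusted p = 0.733). Both transporters passed at matched depth. Por and Nqo1, reductases known to activate AAI, stood at -0.40 (adjusted p = 0.185) and 0.43 (adjusted p = 0.383). Cyp1a1 and Cyp1a2, oxidases of AAI, were too low to test.

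Fatty acid oxidation, the main fuel pathway of proximal tubule, was lower in part. Of 20 genes tested, 7 were lower, among them Etfdh, Acadm, Cyp4a10, Acaa1b and Acaa2, and 0 higher, with a median log2 fold change of -0.49. With library totals 4 were lower and 1 higher, and at matched depth 6 and 0. Acaa2, a mitochondrial thiolase, held 0.792, 0.815, 0.873 and 0.826 per 10000 in members against 1.53, 1.20, 2.10 and 1.95 (log2 -1.13, SE 0.18, adjusted p = 0.00609). It remained lower with members of at least 3 Slc34a1 UMIs (-1.11, adjusted p = 0.000194). Acaa1b, a peroxisomal thiolase, was the only other gene of the list to pass there.

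Genes of matrix turnover and adhesion rose. Of 18 tested, 8 were higher, among them Thbs1, Plaur, Plat, Cdh1, Itga3, Plau and Timp1, and 0 lower, with a median log2 fold change of 0.78. At matched depth 6 of 17 were higher, and under the Slc34a1 limit 1 higher and 1 lower. The 4 genes Plau, Plat, Plaur and Timp1 encode urokinase, tissue plasminogen activator, the urokinase receptor and a metalloproteinase inhibitor. Plau held 1.42, 0.976, 2.21 and 1.46 per 10000 in members against 0.626, 0.536, 0.732 and 1.16 (log2 1.00, SE 0.18, adjusted p = 0.0104). With members of at least 3 Slc34a1 UMIs Plau was higher (0.76, adjusted p = 0.0318).

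Among transcription factors, 5 of 23 tested were higher (Pax8, Ehf, Relb, Klf5 and Runx1) and 2 lower (Hnf4a and Esrra), and at matched depth 4 and 2. Under the Slc34a1 limit 0 were higher and Ehf, an epithelial factor, was lower (-2.64, adjusted p = 0.00313). Hnf4a, the factor that maintains proximal tubule identity, held 0.550, 1.5, 0.606 and 1.33 per 10000 against 1.51, 1.77, 1.26 and 1.87 (log2 -1.09, SE 0.23, adjusted p = 0.0203). Its log2 fold change was 0.00138 (adjusted p = 1) with members of at least 3 Slc34a1 UMIs. Klf5, an epithelial factor linked to growth, held 0.537, 0.428, 0.509 and 0.699 against 0.0991, 0.0775, 0.125 and 0.0277 (log2 2.08, SE 0.24, adjusted p = 0.00201), and turned to -0.59 (adjusted p = 0.865) under that limit. Runx1, named after its values were seen, passed at 2.35 (SE 0.36, adjusted p = 0.0058) and turned to -0.71 (adjusted p = 0.87) under that limit. It held 0.577, 0.294, 0.315 and 0.381 per 10000 in members, below the 0.669 to 0.822 of T lymphocytes.

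Stress genes moved in small numbers. Of 15 oxidative stress genes tested, 4 were higher and 0 lower: Gclm and Gclc, the subunits of the rate-limiting enzyme of glutathione synthesis, and the metallothioneins Mt1 and Mt2. At matched depth the counts were 4 and 0, and under the Slc34a1 limit 0 and 1. Mt1 and Mt2 were lower in value in the CKD 2 members (0.635 against 1.68 and 0.191 against 0.298 per 10000) and turned to -0.51 (adjusted p = 0.0964) and -1.07 (adjusted p = 0.00576) with members of at least 3 Slc34a1 UMIs. Of 19 immediate early genes, Dnajb1 and Fosl1 were higher, as were 2 at matched depth and 7 with library totals, whereas under the Slc34a1 limit 0 were higher and Jun was lower. Of 22 cytokine and growth factor genes, Tgfb1 and Tnfrsf12a, the receptor of TWEAK, were higher and Ccn1 and Mif lower, and at matched depth 2 and 2. Under the Slc34a1 limit the chemokine gene Cxcl2 and C3 (0.72, adjusted p = 0.0017) were higher and Mif lower.

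The p53 list, which holds genes of the response to the DNA adducts that AAI forms, gave 0 calls of 20 in either direction (median log2 fold change 0.09) in the edgeR test, 3 with an unadjusted p under 0.05, and 1 higher with DESeq2. It gave 0 calls at matched depth and under the Slc34a1 limit, and 2 higher without the distal cells. Mdm2, the p53 inhibitor, held 2.44, 1.04, 1.31 and 8.26 per 10000 in members against 0.741, 0.756, 1.67 and 2.50 (log2 0.43, adjusted p = 0.573). Cdkn1a held 7.29, 7.04, 5.34 and 14.5 against 2.03, 2.73, 4.77 and 3.79, with 0.455 in the control. Cdkn1a was higher in value in members in 4 of 4 libraries, without passing the test in this fit. Cell cycle genes gave 0 calls of 7 tested with edgeR or DESeq2 and 0 at an unadjusted p under 0.05. Mki67 was detected in 1 of 80 members and Top2a in 0.

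Of 19 interferon and antigen presentation genes tested, Ifit3 was higher and H2-Ab1 and Ifit1 lower. The rise of Ifit3 (log2 1.27, adjusted p = 0.0275) was not held: at matched depth 0 were higher and 4 lower, and under the Slc34a1 limit 0 were higher and 3 lower (Isg15, Ifit3 and Ifit1), with Ifit3 at -2.24 (adjusted p = 0.00784). Cd74, the invariant chain of MHC class II, held 13.0, 29.7, 3.25 and 25.3 per 10000 in members and 21.9, 29.6, 12.7 and 11.7 in comparison cells (adjusted p = 0.183). The lowest value was that of CKD 1 members and the highest that of AKI 2 members.

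Markers of other cells stood beside these results as follows. Members and comparison cells were picked for no Ptprc or Cd3 UMIs and few C1q UMIs, and T lymphocytes for Cd3 UMIs. Low immune markers are therefore in part set by the rule. The same limits on UMIs are also stricter for deeper barcodes, and members were deeper than comparison cells. The 8 T lymphocyte markers summed to 0.147 to 0.318 per 10000 in members and 0.403 to 1.19 in comparison cells of the AAI libraries, against 30.6 to 36.3 in T lymphocytes, and 1 of 4 tested (Trbc2) was lower. The 8 macrophage and dendritic cell markers, which include Cd74, summed to 13.7, 30.4, 3.86 and 25.4 in members and 22.8, 30.8, 15.5 and 12.3 in comparison cells, and Fcer1g, Ctss and Lyz2 were lower of 7 tested. Endothelial markers summed to 0.832, 1.62, 1.02 and 0 against 1.70, 1.34, 1.68 and 0.180, with 0 calls of 6 in edgeR and DESeq2 and 2 at an unadjusted p under 0.05. Fibroblast and pericyte markers summed to 0 to 0.805 against 0.0277 to 0.975, with Col1a2 lower and Pdgfrb and Col3a1 at 0 in members. Red cell markers were at 0 in members, B lymphocyte and neutrophil markers at or below 0.0635, and none of these 3 lists, nor that of urothelium, could be tested. The part of RNA from other cells in the gene differences was not tested.

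Distal segment lists moved with the 7 distal cells. The thick ascending limb list summed to 25.3, 7.42, 59.7 and 1.27 per 10000 in members against 18.1, 1.70, 8.28 and 1.42, with 0 calls of 8 in edgeR, 2 higher in DESeq2, 1 at an unadjusted p under 0.05 and a median log2 fold change of 0.97. Without those 7 cells the median was -2.85 and 2 of 5 tested were lower. Principal cell markers gave 0 calls of 6 in edgeR and DESeq2 (0 unadjusted) and intercalated markers 2 lower of 6 (Slc26a4 and Slc4a9), which became 5 of 5 and 5 of 6 lower without the distal cells. The 7 cells were set apart by these same lists and taken out of the members only, so these falls follow in part from that choice. Over all genes tested without them, 437 of 9924 were lower. Calb1 of the connecting tubule list, Podxl of the podocyte list and, of the S3 list, Cyp4a14 and Acy3 were lower and Atp11a higher.

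**Figure D4:**
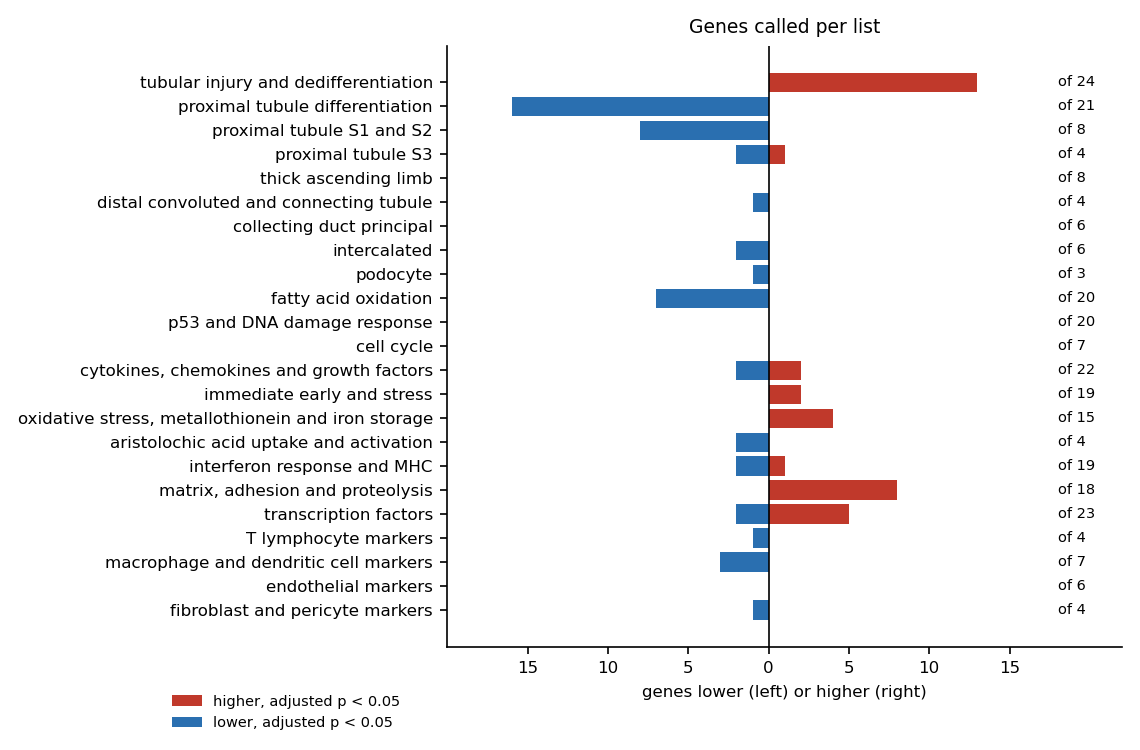
Number of genes of each list that were lower (bars to the left) or higher (bars to the right) in Havcr1-positive than in comparison cells at an adjusted p under 0.05, with the number tested at the right edge. The injury list has 13 of 24 higher, the proximal tubule differentiation list 16 of 21 lower, and the p53 and cell cycle lists have no bar.

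Havcr1-positive cells of the CKD phase were then compared with those of the AKI phase, to ask what differed 2 weeks after the last injection. Over AKI 1, AKI 2, CKD 1 and CKD 2, edgeR's quasi-likelihood test called 0 of 7097 genes (0%) at an adjusted p under 0.05, 216 (3.04%) had an unadjusted p under 0.05, and DESeq2 called 2. For 2157 genes (30.4%) the values of the 2 groups did not overlap. With 9 to 27 cells per library the test had little reach. On simulated data with 7043 genes tested it recovered 1.72% of 2-fold, 47.6% of 4-fold and 94.4% of 8-fold changes. Every simulated gene had the same dispersion, so these shares do not hold for genes that vary more between libraries. In the real data Ces1f and Kap, with fitted rises of 30.7-fold and 24.9-fold in CKD, did not pass. The count depended on CKD 1, since without it 184 genes passed (63 higher and 121 lower in CKD 2), against 10 without AKI 1, 7 without AKI 2 and 15 without CKD 2.

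Ces1f and Ces2e, carboxylesterase genes and the 2 called by DESeq2, were named after their values were seen. Ces1f held 0, 0.0401, 0.509 and 1.14 per 10000 in the members of the 4 libraries. Ces2e held 0.188, 0.160, 0.922 and 3.68. Both were higher in both CKD libraries, with adjusted p = 0.0386 and 0.0248 in DESeq2 and unadjusted p = 0.000552 and 0.000900 in edgeR. The comparison cells moved the same way, with Ces1f at 0.189, 0.220, 0.455 and 0.832 and Ces2e at 0.185, 0.216, 0.844 and 0.673.

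Kap, an androgen-regulated gene of proximal tubule named after its values were seen, held 0, 0.174, 2.50 and 2.41 per 10000 in members. It came from 0, 2, 5 and 3 cells of the 4 libraries. Its log2 change from AKI to CKD was 4.64 (SE 0.94, unadjusted p = 0.00192, adjusted p = 1). With members of at least 4 Havcr1 UMIs, Kap passed in edgeR (8.01, adjusted p = 0.00782), as did Eprn and Cd74. In comparison cells Kap stood at 0.00639, 0, 0.0280 and 0.153, and in the control comparison cells at 6.05. In the Havcr1-positive cells of CKD the level thus lay between the other AAI cells and the control.

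Spp1 was lower in value in CKD, at 256 and 73.7 per 10000 against 274 and 350, with a log2 fold change of -1.0 (SE 0.74, unadjusted p = 0.215). When each cell was given the same weight its means were 230, 308, 166 and 60.9. Vcam1 held 2.09 and 2.74 in AKI and 0.388 and 1.02 in CKD (log2 -2.06, SE 0.49, unadjusted p = 0.00363). S100a6 showed no order by phase, at 51.8 and 7.15 in AKI and 44.7 and 68.5 in CKD (log2 0.80, SE 0.83, unadjusted p = 0.369). None of these passed adjustment.

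**Figure D5:**
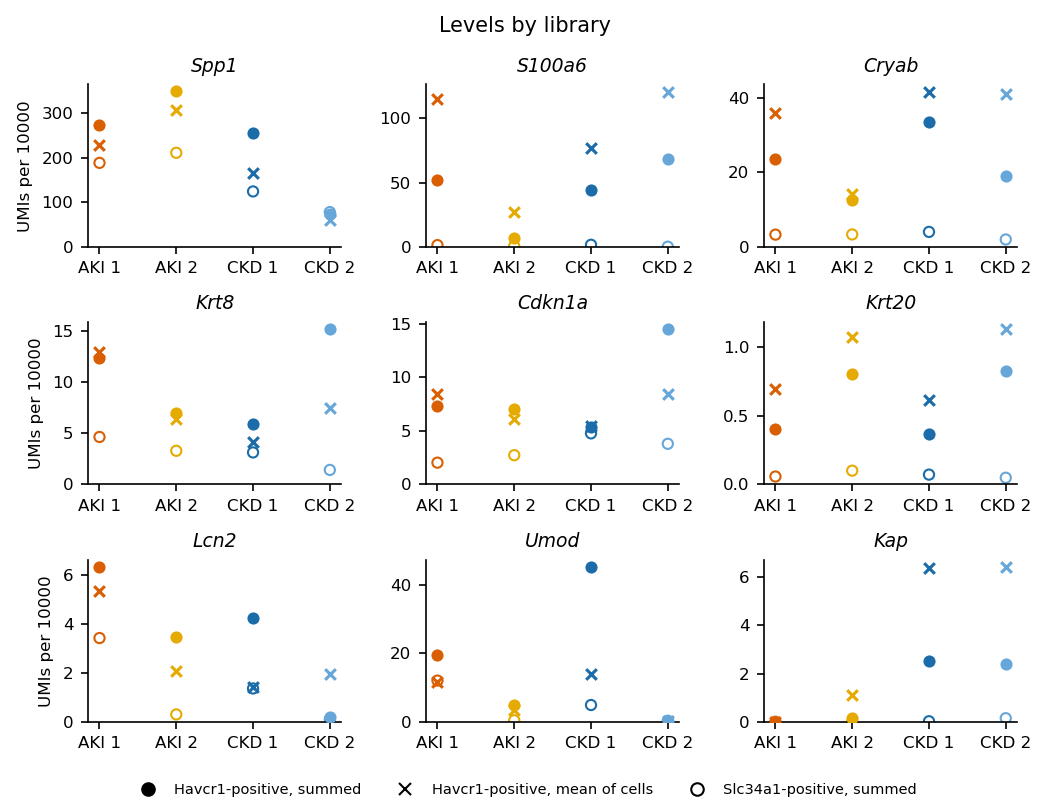
UMIs per 10000 on linear axes from 0 for 9 genes in each AAI library, as the summed level of Havcr1-positive cells (filled points), the mean of those cells with equal weight (crosses) and the summed level of comparison cells (open points). Krt20 members exceed comparison cells in every library, Kap members stand at 2.41 or more in CKD and 0.174 or less in AKI, and Spp1 members and comparison cells are close in CKD 2 (73.7 and 78.2).

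Whether the contrast between Havcr1-positive and comparison cells itself changed from AKI to CKD was tested as an interaction over AKI 1, AKI 2 and CKD 1, so that the CKD side was a single library. Of 10096 genes, 1 passed, 517 had an unadjusted p under 0.05 and DESeq2 also called 1. The gene was Fst, with a log2 difference of -6.15 (SE 0.52, adjusted p = 0.0263). Fst held 4.99, 0.668, 0.412 and 0.699 per 10000 in members and 0.0224, 0.00646, 0.158 and 0 in comparison cells. It came from 9 of 21, 4 of 27, 6 of 23 and 2 of 9 members, and the highest value was that of AKI 1 alone. In AKI 1, single cells held 112 and 191 of the members' 372 Fst UMIs, and in AKI 2 a distal cell held 34 of 50. The comparison cells of CKD 1 held more Fst than those of any other library, and CKD 2, with 0 in comparison cells, was not like CKD 1. With CKD 2 added to the fit 0 genes passed and 284 had an unadjusted p under 0.05.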

How the data were processed

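Kidney cells were sequenced in droplets with a 3′ kit. The deposited values are UMI counts of each gene in each barcode, which the authors made with Cell Ranger and STAR and did not normalize. Per the labels this was Cell Ranger 7.2.0 with GRCm39, whereas 5.0.0 stands in the file headers of the AAI libraries and the control gene list names mm10. All 5 libraries list the same 32285 genes. The study's removal of free RNA and of doublets is not part of these counts and was not repeated. Coordinates come from the GENCODE annotation of GRCm39.

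Members, comparison cells and the 27 gene lists were chosen with earlier results of these data known. Counts were summed per library and cell set and tested in R 4.3.3 with edgeR 4.0.16 (quasi-likelihood, TMM scaling, filterByExpr, Benjamini-Hochberg), with DESeq2 1.42.0 as the alternative. Genes of the gates and mitochondrial genes stayed in the totals and out of the tests. Levels are UMIs per 10000 UMIs of a cell set. Named genes were the 10 largest rises and 10 largest falls (adjusted p under 0.05, mean of at least 1 per 10000, same sign in every library of the fit) and up to 6 per list, and all genes of a list of 8 or fewer. Others are said to be named after their values were seen, as are Cp, Vim, Krt7, Anxa1, Cxcl2, the genes that describe the 3 classes and those listed beside a count. A few genes of the lists are counted but not reported by name here. On simulated data the contrast of members and comparison cells recovered 50% of 2-fold and 85.9% of 4-fold changes among 10182 genes, and the interaction 1.54 and 30.8% among 10161. The simulations gave every gene the same dispersion, which real genes do not share. Python 3.11.15 with numpy 2.4.6, scipy 1.17.1, pandas 2.3.3 and matplotlib 3.10.9 was used.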

Additional observations from a re-analysis of the deposited data

Results flagged for a closer look

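Fst passed the test of a difference between the phases in the contrast of Havcr1-positive with comparison cells, with a log2 difference of -6.15 for CKD minus AKI (edgeR interaction, adjusted p = 0.0263). The CKD side was CKD 1 alone, so this is a difference of 1 library and not shown for the phase: in CKD 2 members held 0.699 per 10000 against 0 in comparison cells, and with CKD 2 in the fit 0 genes passed. The level of 4.99 per 10000 in the AKI 1 members stood apart from 0.668 in AKI 2, and the comparison cells of CKD 1 held 0.158 against 0.0224 or less in the other 3 AAI libraries. The AKI levels rested on few cells. In AKI 1, single cells held 112 and 191 of the members' 372 Fst UMIs, and in AKI 2 a distal cell held 34 of 50.

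The immune gates left out 117 barcodes of the 4 AAI libraries that held at least 2 Havcr1 UMIs, more than the 80 that were kept, against 1 in the control. They numbered 31 and 44 in the AKI libraries and 27 and 15 in the CKD libraries. Over all 118, Ptprc was present in 82, a Cd3 gene in 70, and more than 2 C1q UMIs in 24, while 42 also held at least 3 Slc34a1 UMIs. Their median depth was 43351, 33362, 14653 and 37958 UMIs in the AAI libraries and 5344 in the control barcode. The part of droplets with more than 1 cell in these barcodes was not tested.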

How the results depend on the processing

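Counts of genes called are given first for CKD against AKI (0), then for members against comparison cells (996), then for the interaction (1). With DESeq2 they were 2, 553 and 1, without a filter on low counts 6, 1709 and 54, with a mitochondrial limit of 15% 0, 345 and 8, with at least 1 Havcr1 UMI 0, 1795 and 2, and with at least 4 Havcr1 UMIs 3, 569 and 2. They were 0, 985 and 22 with the rule applied after thinning, 0, 452 and 0 without cells holding markers of other cell types, 0, 202 and 0 without the deepest 5% of barcodes, and 0, 621 and 2 with cells thinned to at most 3000 UMIs. The last setting, the distal cell and depth-matched settings and the addition of CKD 2 (0 in the interaction) were chosen after seeing the data. With Slc34a1 required on both sides 229 genes passed. Leaving out 1 library gave 7 to 184 calls for CKD against AKI, where a lone library is assumed to vary like the other group, and 94 to 1540 for members against comparison cells. The interaction could not be fitted without any of its 3 libraries. The cause was not tested for any of these moves, beyond the fewer cells or genes that a setting leaves. The difference in share of -0.111 percentage points became -0.240 with at least 1 Havcr1 UMI, -0.0271 after thinning, -0.557 of barcodes free of Ptprc and Cd3, -4.78 of Havcr1-positive or Slc34a1-positive cells, and -0.142 to -0.0806 without 1 library.

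A fit of CKD against AKI with the replicate number as a block called 1 gene, Ces1f, against 0 without it. The libraries share only a number, since the phases are separate mice, and are not paired.

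The log2 fold changes of members against comparison cells that changed sign were, with Slc34a1 on both sides, S100a6 -0.97, Plet1 -0.96, Nupr1 -0.0328, Tinagl1 -0.99, Hspb1 -0.0895, Clu -0.70, Krt8 -0.0201, Krt18 -1.16, Epcam -0.37, Cd24a -0.91, Runx1 -0.71, Keg1 0.0761, Ccn1 0.0203, Tgfb1 -0.12, Mt1 -0.51, Mt2 -1.07, Ifit3 -2.24, Thbs1 -0.79, Hnf4a 0.00138, Ehf -2.64, Klf5 -0.59, Lcn2 -0.24 and Umod -0.63. After thinning they were Spp1 -0.58, Clu -0.0897, Podxl 0.51, Mt1 -0.36, Gclc -0.60, Mt2 -0.16, Ifit1 1.07, Trbc2 0.14 and Umod -1.20. Without the deepest barcodes they were Spp1 -0.0610, Clu -1.93, Lcn2 -1.68 and Umod -1.76. With distal cells taken out of the members only, they were Clu -1.86, Lcn2 -3.01 and Umod -2.85. With comparison cells free of immune gates they were Tmsb10 -0.43 and Tgfb1 -0.44, and with at least 1 Havcr1 UMI Calb1 0.33. The cause was not tested.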
